A study of Mus musculus with 9 samples.

Results

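Oxidative phosphorylation (OXPHOS) genes encoded in the nucleus were followed in MLL-AF9 leukemia cells on a total of 9 arrays. Members were probe sets with a single gene symbol in the platform annotation that begins with Nduf, Sdh followed by a, b, c or d, Uqcr, Cox4 to Cox8 or Atp5, with pseudogenes left out and 1 probe set kept per gene, the one with the highest mean. The rule uses symbols and mean signal and no difference between groups, but it was set with earlier results of these data known. This gave 91 of the 22180 genes with a single symbol on the array: 40 of complex I, 8 of complex II, 7 of complex III, 19 of complex IV and 17 of complex V. Of these, 85 had a mean log2 signal above 3.81, the median over all probe sets, and the other 6 were dim. The dim members were Ndufs5, Cox7c, Cox7b2, Cox8b, Cox8c and Ndufa4l2.

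The cells were mouse acute myeloid leukemia cells that carry the human MLL-AF9 fusion gene, a GFP marker and the reprogramming factors Oct4, Sox2, Klf4 and c-Myc (OSKM) under a tetO promoter, which doxycycline (Dox) switches on. They grew in irradiated C57BL/6J recipient mice and were sorted from the spleen of mice that drank no Dox (control, 3 arrays) or Dox for 48 h (3 arrays) or 72 h (3 arrays). All 3 groups carry the fusion gene and the OSKM cassette, so an effect of Dox itself and an effect of OSKM cannot be told apart. The labels call the replicates biological. Whether each came from its own mouse is not given in the sources used here, so the spread behind each p-value may not be that between mice. The arrays hold pooled RNA of sorted cells, so fewer cells of a type and less RNA per cell cannot be told apart either.

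OXPHOS is the mitochondrial process that turns the energy of nutrients into ATP. Complex I takes electrons from NADH and complex II, which is also an enzyme of the tricarboxylic acid cycle, takes them from succinate. Complex III hands them to cytochrome c, complex IV passes them to oxygen, and complex V, the ATP synthase, uses the proton gradient built on the way. Apart from complex II, each complex joins subunits of the mitochondrial genome with nuclear ones, and only nuclear genes are described here. Acute myeloid leukemia cells are known for relying on this pathway.

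One array stood apart before any group was compared. Dox 72 h 3 was the highest of the 9 arrays for 70.3% of the members (64 of 91), against 19.4% of all 41345 probe sets, of which 20.8% were lowest there. It also had the lowest array median, 3.71 on the log2 scale, with 3.76 to 3.87 on the others. The same array carried more signal of other cell types. Its median deviation from the control mean was 0.72 over 6 erythroid genes, 0.61 over 8 B cell genes, 0.51 over 8 T cell genes and 0.56 over 10 genes of red pulp macrophages. Control 3 came next for the erythroid, T cell and macrophage lists (0.50, 0.34 and 0.52). As summed signals on the log2 scale, the B cell list spanned 8.27 to 8.40 in control, 8.48 to 8.55 at 48 h and 8.76 to 9.36 at 72 h. The T cell list spanned 6.78 to 7.48, 6.93 to 6.99 and 6.997 to 8.41. The erythroid list spanned 6.59 to 7.96, 6.77 to 6.88 and 6.98 to 8.19, and the macrophage list 9.40 to 10.5, 9.80 to 10.01 and 9.27 to 10.3. The leukemia and myeloid genes, 12 of 12 above the dim limit, summed to 13.95 to 14.07, 13.58 to 13.71 and 13.60 to 13.63 in the same groups. Single genes of this list went both ways, with 7 of 12 above the control mean at 48 h and 5 of 12 at 72 h. The median deviation of this list on Dox 72 h 3 was -0.19. Of the B cell genes, Ms4a1, Pax5, Ebf1, Blk, Cr2 and Fcer2a were below the dim limit, as were Cd3d, Cd4, Cd8a and Themis of the T cell genes and Rhag of the erythroid genes. All 10 macrophage genes were above it. The part of these cells in the OXPHOS values was not tested, and at 72 h the medians, and each named difference that moved by over 1.5 times, are also given without Dox 72 h 3.

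At 72 h most OXPHOS genes lay slightly above control, and none did so past the threshold. By limma with Benjamini-Hochberg adjustment over all probe sets, 0 of 91 members passed an adjusted p of 0.05 at 72 h against control, where 2.49% of all probe sets did. At an unadjusted p under 0.05, 21 members were higher and 1 was lower (24.2% of members, against 16.8% of all probe sets and 26.4% of those above the dim limit, where 85 of the members lay). The median difference of the 91 members was 0.17 on the log2 scale (quartiles 0.051 and 0.28), and 78 of 91 were above 0. The median over all probe sets was -0.008. For 27 members every 72 h array was above every control array, against 9.10% of all probe sets and 13.8% of those above the dim limit. The reverse held for 2 members, Ndufs5 and Atp5j2, against 11.6% and 17.3%. Single differences ran from -0.43 (Cox6b2) to 0.57 (Atp5e). All 95% intervals at 72 h stayed within a 2-fold difference, and 68 of 91 within 1.5-fold. Without Dox 72 h 3 the median was 0.089, 67 members were above 0, and 13 had an unadjusted p under 0.05. That last count was 12 without control 1 and 34 without Dox 72 h 1.

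At 48 h the members lay on both sides of control. The test called 0 of 91 members, where 1.60% of all probe sets passed. At an unadjusted p under 0.05 there were 1 higher and 5 lower members. In either direction, 10.2% of all probe sets and 16.1% of those above the dim limit did so. The median was -0.013, beside -0.015 over all probe sets, and 43 of 91 members were above 0. Its sign changed with median centring (0.023), without Dox 48 h 2 (0.012) and without Dox 48 h 3 (0.0033). Without Dox 48 h 1 the median was -0.037 and 25 of 91 members were above 0, and without control 3 an unadjusted p under 0.05 was reached by 3 members. The ranges of 48 h and control arrays did not overlap for 2 members that were higher (7.37% of all probe sets) and 5 that were lower (8.00%). For 88 of 91 members the 95% interval at 48 h stayed within 1.5-fold. Between the time points the difference was of the size seen between 72 h and control, and both comparisons share the 72 h arrays. At 72 h against 48 h, 0 of 91 members passed (0.215% of all probe sets), and the median was 0.17, with 84 of 91 above 0. An unadjusted p under 0.05 was reached by 31 members on the higher side and 0 on the lower. In either direction, 12.3% of all probe sets and 18.6% of those above the dim limit reached it. Ranges did not overlap for 27 members that were higher (7.13% of all probe sets) and 1 that was lower (8.15%). Without Dox 72 h 3 this median was 0.096, and 9 members had an unadjusted p under 0.05, against 10 without Dox 48 h 2 and 14 without Dox 48 h 3. Over the 3 groups together, the F test called 0 of 91 members (2.24% of all probe sets). At an unadjusted F test p under 0.05 there were 21 of 91 members. Of all 41345 probe sets 6515 reached it, as did 5294 of the 20673 above the dim limit. The member count was 12 without Dox 72 h 3, 12 without Dox 48 h 2 and 13 without Dox 48 h 3.

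The complexes differed in their medians at 72 h. Complex I had the highest median (0.21, 37 of 40 members above 0), then complex III (0.17, 6 of 7), complex II (0.15, 8 of 8), complex V (0.097, 14 of 17) and complex IV (0.047, 13 of 19). Complex I includes 8 assembly factors here, and complex II includes the assembly factors Sdhaf1, Sdhaf2, Sdhaf3 and Sdhaf4. The members of complexes III, IV and V include no assembly factor. With 8 alternative isoforms of complex IV set aside, its median was 0.13 (9 of 11 above 0). These isoforms are Cox4i2, Cox6a2, Cox6b2, Cox7a1, Cox7b2, Cox8b, Cox8c and Ndufa4l2. At 48 h all 5 medians lay between -0.040 (complex IV) and 0.026 (complex III). No test of a difference between complexes was made. Without Dox 72 h 3 the medians at 72 h were 0.12 for complex I, 0.11 for complex III, 0.029 for complex II, 0.061 for complex V and -0.023 for complex IV (0.028 with the isoforms set aside).

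**Figure D1:**
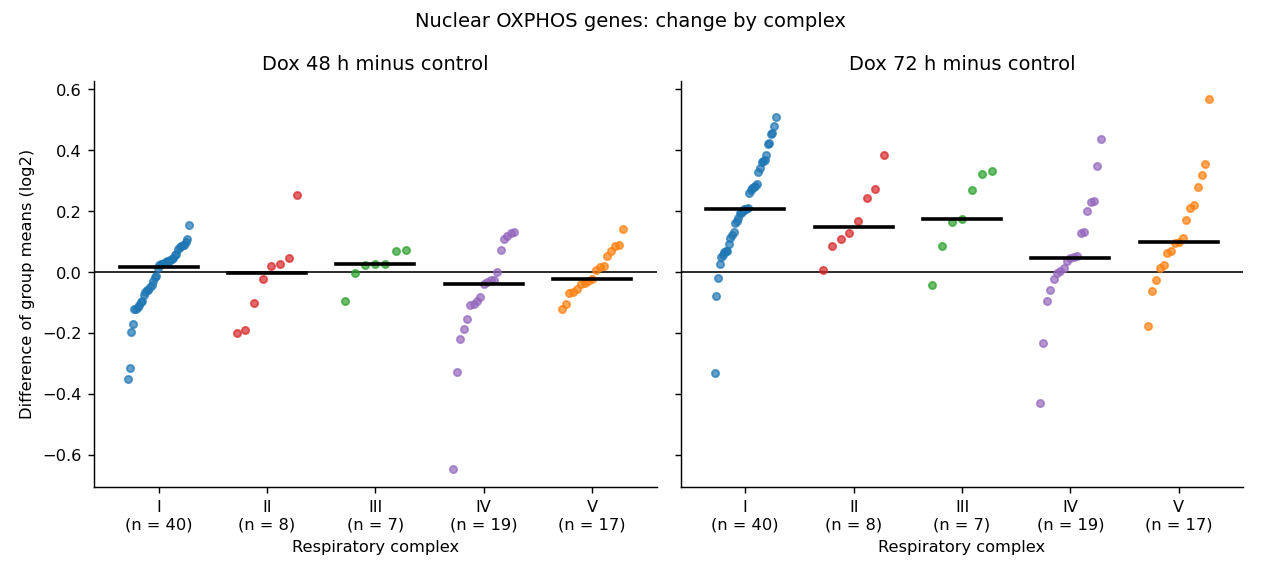
Difference from control (log2, difference of group means) for each of the 91 OXPHOS genes at 48 h and at 72 h, by respiratory complex. Points are genes sorted within a complex and bars are medians, which lie between -0.040 and 0.026 at 48 h and between 0.047 and 0.21 at 72 h.

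Array by array, the members lay above the control mean mostly on Dox 72 h 3. Their median deviation from the control mean was 0.028 on Dox 72 h 1, 0.10 on Dox 72 h 2 and 0.32 on Dox 72 h 3, and it was 0.050, -0.058 and -0.028 on the 48 h arrays. For complex I the 72 h arrays gave 0.062, 0.15 and 0.41, and for complex V 0.0029, 0.062 and 0.20. Complex II gave 0.044, 0.037 and 0.31, with all 8 members highest on Dox 72 h 3. The median SD between replicates of a member was 0.091 in control, 0.095 at 48 h and 0.16 at 72 h.

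**Figure D2:**
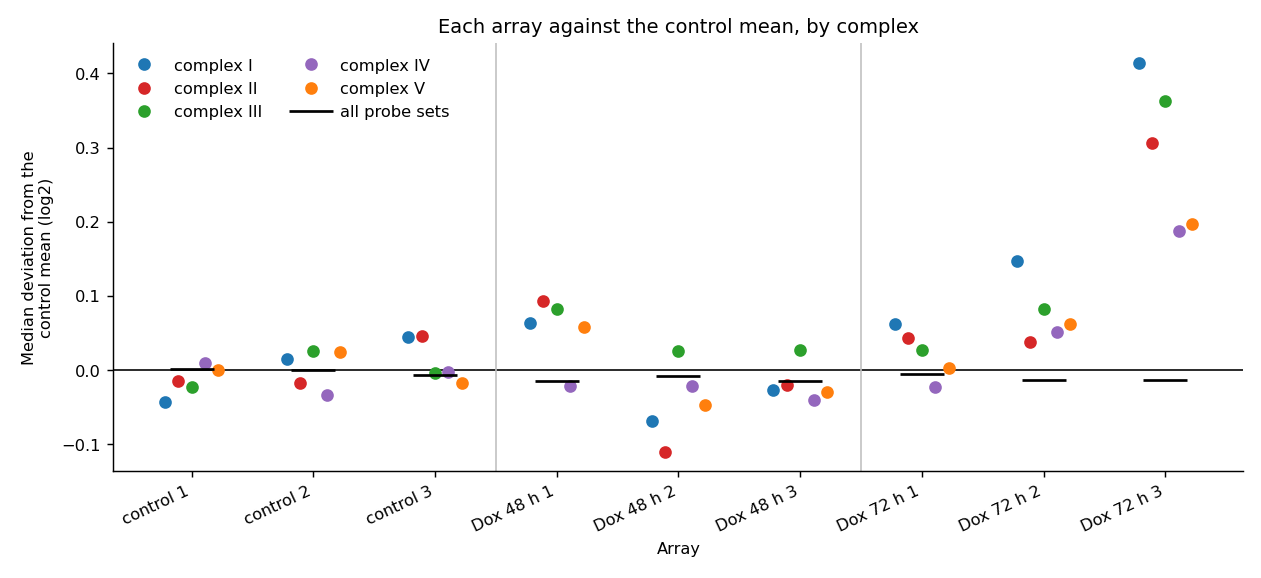
Median deviation from the mean of the 3 control arrays (log2) on each of the 9 arrays, for the members of each complex (points) and for all 41345 probe sets (black bars). On Dox 72 h 3 the complexes lie between 0.19 and 0.41, and all other points lie between -0.11 and 0.15.

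In complex I, accessory subunits lay further above control at 72 h than the catalytic core. The 26 accessory subunits, which surround and stabilize the enzyme, had a median of 0.28 (23 above 0). The 6 core subunits, most of which carry the flavin or iron-sulfur clusters, had 0.12 (6 above 0), and the 8 assembly factors 0.19 (8 above 0). The 8 Ndufb genes, all accessory subunits and most of them parts of the membrane arm, had a median of 0.34 (8 above 0). The 13 genes with an Ndufa symbol, of which Ndufa4 belongs to complex IV, had a median of 0.28 (12 above 0). At 48 h the same groups were at 0.024 (accessory), 0.020 (core), -0.022 (assembly), 0.0065 (Ndufb) and 0.041 (Ndufa). Without Dox 72 h 3 the medians at 72 h were 0.17 (accessory), 0.074 (core), 0.092 (assembly), 0.20 (Ndufb) and 0.17 (Ndufa). These are descriptions of the genes, with no test of the groups against each other.

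Of the members, Ndufb10, an accessory subunit of the membrane arm, came closest to the threshold at 72 h. Its log2 signal was 6.51, 6.46 and 6.60 on the control arrays, 6.50, 6.64 and 6.61 at 48 h and 6.77, 6.89 and 6.99 at 72 h. Every 72 h array was above every array of the other groups. The difference from control was 0.36 ± 0.080 (SE, 1.28-fold, 95% interval 0.18 to 0.54, limma adjusted p = 0.0605) at 72 h and 0.06 (adjusted p = 0.899) at 48 h. This gene passed the threshold at 72 h with quantile normalization (adjusted p = 0.0488), with median centring (0.047) and with dim probe sets left out (0.0376), and was at 0.144 without Dox 72 h 3. Ndufs5, an accessory subunit, lay the other way on a dim probe set, with 3.18, 3.22 and 3.01 in control, 2.79, 2.72 and 2.84 at 48 h and 2.84, 2.70 and 2.87 at 72 h. The Dox arrays were all below the control arrays (differences of -0.35 and -0.33, adjusted p = 0.0977 and 0.0828). A brighter probe set that the annotation shares between Ndufs5 and a pseudogene, which the rule left out, had the opposite sign (0.16 at 48 h and 0.64 at 72 h, adjusted p = 0.866 and 0.125), so no direction is given for Ndufs5. The rule also left out a probe set that Ndufs1, a core subunit, shares with Ino80dos. It was at -0.81 at 48 h and -0.97 at 72 h (adjusted p = 0.131 and 0.0518), and at -0.81 at 72 h without Dox 72 h 3 (0.13). The member probe set of Ndufs1 was at 0.11 and 0.064 (adjusted p = 0.779 and 0.763). Which gene gives the signal of the shared probe set was not tested. Ndufb9, named as the brightest complex I probe set, was at 10.70, 10.80 and 10.86 in control, 10.73, 10.61 and 10.67 at 48 h and 10.78, 10.85 and 11.10 at 72 h, with overlapping groups (0.12 at 72 h, adjusted p = 0.572, and 0.03 without Dox 72 h 3).

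Other complex I genes are named here after their values were seen. Ndufa13, an accessory subunit also known as GRIM-19, was at 8.43, 8.67 and 8.64 in control, 8.79, 8.48 and 8.64 at 48 h and 8.94, 8.99 and 9.24 at 72 h (0.48 ± 0.12, adjusted p = 0.0828). Its 72 h arrays were again the 3 highest. Ndufaf2, an assembly factor of complex I, was at 4.85, 4.89 and 4.97 in control, 5.06, 4.87 and 5.06 at 48 h and 5.06, 5.49 and 5.68 at 72 h (0.51 ± 0.15, adjusted p = 0.126). It passed the threshold when Dox 72 h 1, the lowest of the 72 h arrays, was left out (adjusted p = 0.0266). Ndufb3, an accessory subunit, had the smallest adjusted p between the time points, 0.192, with 6.41, 6.20 and 5.95 at 48 h and 6.55, 6.78 and 6.68 at 72 h. Ndufa5, an accessory subunit of the arm that faces the matrix, had all 48 h arrays (5.87, 5.67 and 5.86) below the control arrays (6.05, 6.23 and 6.06) and was back at 6.05, 6.12 and 6.11 at 72 h (difference of -0.32 at 48 h, adjusted p = 0.142, and -0.02 at 72 h).

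In complex II, which has no mitochondrially encoded subunit, both hydrophilic catalytic subunits lay above control on every 72 h array. Sdhb, the iron-sulfur subunit, was at 7.81, 7.91 and 7.79 in control, 8.25, 8.04 and 7.98 at 48 h and 8.11, 8.18 and 8.37 at 72 h. Sdhb was the only named OXPHOS gene whose arrays were all above control at both times. The differences were 0.25 ± 0.098 (SE, adjusted p = 0.409) at 48 h, the highest of all members there, and 0.38 ± 0.098 (1.31-fold, adjusted p = 0.0919) at 72 h. Sdha, the flavoprotein subunit, was at 9.10, 9.17 and 9.10, then 9.14, 9.14 and 9.17, then 9.28, 9.30 and 9.30. Its 72 h arrays had an SD of 0.0084 and the difference was 0.17 ± 0.057 (adjusted p = 0.187), nearly the same without Dox 72 h 3 (0.16). Sdhaf3, an assembly factor and the dimmest complex II probe set, had 3.75, 3.88 and 3.93 in control, 3.80, 3.59 and 3.57 at 48 h and 3.95, 3.80 and 4.07 at 72 h, with overlap.

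In complex III the 2 leading genes differed from control at 72 h by less than Sdhb did, and by less again without Dox 72 h 3. Uqcr11, a small accessory subunit, was at 6.25, 6.15 and 6.20 in control, 6.25, 6.25 and 6.09 at 48 h and 6.48, 6.27 and 6.85 at 72 h (0.33 ± 0.14, adjusted p = 0.274). Uqcrh, the hinge protein that helps cytochrome c bind, was at 7.78, 7.94 and 8.03, then 8.10, 7.89 and 7.96, then 8.03, 8.17 and 8.51 (0.32 ± 0.13, adjusted p = 0.272). Their differences without Dox 72 h 3 were 0.17 and 0.18. Uqcrb was at 10.48, 10.65 and 10.74 in control and 10.52, 10.64 and 10.59 at 72 h (-0.04). Uqcrq was at 5.41, 5.38 and 5.37 in control and 5.39, 5.67 and 5.91 at 72 h (0.27, adjusted p = 0.313, and 0.14 without Dox 72 h 3), and the groups of both genes overlapped. Uqcrfs1, the Rieske iron-sulfur protein and the only member of complex III that carries a redox centre, is named after its values were seen, with 6.69, 6.64 and 6.39 in control and 6.60, 6.67 and 6.94 at 72 h.

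Complex IV holds ubiquitous subunits and isoforms known from single tissues. Ndufa4, once counted with complex I and now known as a subunit of complex IV, had the smallest p in the complex at 72 h. It was at 9.43, 9.62 and 9.51 in control, 9.60, 9.55 and 9.62 at 48 h and 9.80, 9.74 and 10.06 at 72 h (0.35 ± 0.095, 1.27-fold, adjusted p = 0.111). Its counterpart Ndufa4l2, known as a hypoxia-induced gene, was dim on all 9 arrays, from 2.85 to 3.55. Cox4i1, the common form of the subunit that binds ATP as a regulator, was at 9.35, 9.22 and 9.31 in control, 9.50, 9.37 and 9.34 at 48 h and 9.53, 9.59 and 10.08 at 72 h (0.44 ± 0.14, adjusted p = 0.163, and 0.27 without Dox 72 h 3), so that its 72 h arrays were above all others. Cox4i2, the form of the lung that responds to oxygen, stayed between 3.82 and 4.16 on the 9 arrays, close to the dim limit (0.00 at 72 h, adjusted p = 0.991, and -0.04 without Dox 72 h 3).

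Cox6b2, the form of subunit 6b known from testis, had the lowest difference of all members. Its signal was 7.02, 6.99 and 7.59 in control, 6.73, 6.42 and 6.52 at 48 h and 6.62, 6.65 and 7.06 at 72 h. All 48 h arrays were below the control arrays, and the 72 h arrays overlapped them. The differences were -0.65 ± 0.19 (SE, adjusted p = 0.213) and -0.43 ± 0.19 (adjusted p = 0.303). Control 3 was the highest array for this gene, and without it the differences were -0.45 at 48 h and -0.23 at 72 h. The ubiquitous Cox6b1 was at 9.41, 9.52 and 9.52 in control, 9.40, 9.22 and 9.51 at 48 h and 9.55, 9.65 and 9.94 at 72 h (0.23, adjusted p = 0.372, and 0.12 without Dox 72 h 3), with no overlap between 72 h and control.

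The other isoform sets of complex IV showed no separation of the groups, with the exception of Cox7a2l. Cox6a1 was nearly constant, from 11.92 to 12.17 over the 9 arrays (0.0040 at 72 h, 95% interval -0.17 to 0.17, and -0.07 without Dox 72 h 3), and the muscle form Cox6a2 lay between 3.57 and 4.08. Cox7a2 went from 9.17, 9.24 and 9.02 in control to 9.12, 9.23 and 9.47 at 72 h (0.13, adjusted p = 0.595, and 0.03 without Dox 72 h 3), while the muscle form Cox7a1 lay between 3.52 and 3.97. Cox7a2l, which helps complexes III and IV form supercomplexes, was at 7.39, 7.19 and 7.33 in control, 7.01, 7.33 and 7.26 at 48 h and 7.41, 7.41 and 7.69 at 72 h (0.20, adjusted p = 0.435, and 0.11 without Dox 72 h 3), with the 72 h arrays above the others. Cox8a was at 10.43, 10.43 and 10.67 in control and 10.52, 10.61 and 10.78 at 72 h (0.13, and 0.06 without Dox 72 h 3). Cox8b, Cox8c and Cox7b2, forms restricted to few tissues, were dim, with the highest single array at 3.68, 2.75 and 2.60. A further 2 members of complex IV, named after their values were seen, had all 48 h arrays at or below the lowest control array. They were Cox7b (9.06, 8.99 and 8.86, against 9.25, 9.27 and 9.38 in control, -0.33, adjusted p = 0.322) and Cox5b (-0.22).

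In complex V, Atp5e, the epsilon subunit of the central stalk, had the largest difference of all members at 72 h. It was at 8.32, 8.37 and 8.21 in control, 8.48, 8.22 and 8.45 at 48 h and 8.63, 8.75 and 9.23 at 72 h, with every 72 h array above the others. The difference was 0.57 ± 0.15 (SE, 1.48-fold, 95% interval 0.21 to 0.92, adjusted p = 0.11) and 0.39 without Dox 72 h 3. A second Atp5e probe set gave 0.47 at 72 h (adjusted p = 0.196) and 0.30 without Dox 72 h 3. Atp5k, the e subunit of the membrane sector, was at 7.95, 8.20 and 8.08 in control, 8.12, 7.88 and 7.87 at 48 h and 8.24, 8.39 and 8.67 at 72 h (0.35 ± 0.13, adjusted p = 0.211, and 0.24 without Dox 72 h 3). The catalytic beta subunit Atp5b had a difference near 0, with 11.50, 11.57 and 11.42 in control and 11.48, 11.54 and 11.54 at 72 h (0.02 ± 0.064, 95% interval -0.13 to 0.17, and 0.01 without Dox 72 h 3). Atp5j2, the f subunit, was at 4.58, 4.31 and 4.31 in control and 4.11, 4.30 and 4.27 at 72 h (-0.18, adjusted p = 0.42). The 3 genes Atp5g1, Atp5g2 and Atp5g3 code for the same mature c-ring protein. Their differences at 72 h were 0.10, 0.06 and -0.03 (adjusted p from 0.697 to 0.901), and 0.22, 0.01 and -0.08 without Dox 72 h 3. The groups overlapped, and Atp5g1 was highest on Dox 72 h 1 (5.03) and lowest on Dox 72 h 3 and Dox 48 h 1 (both 4.44).

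**Figure D3:**
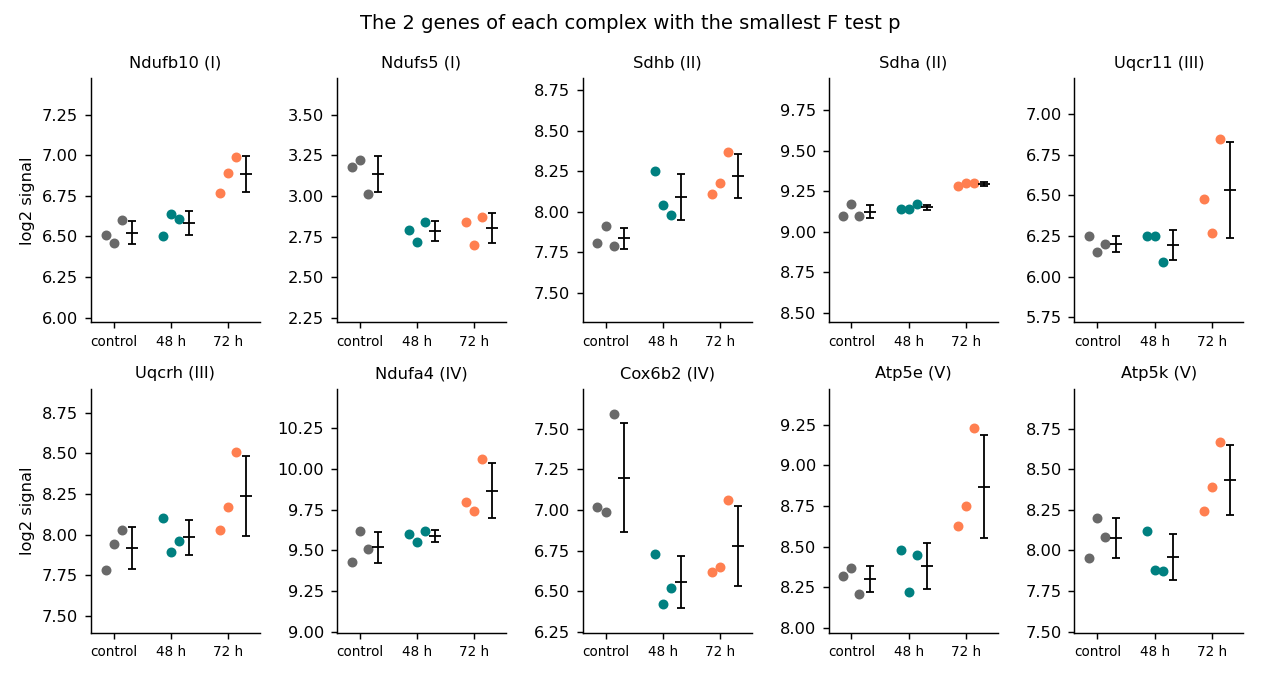
Log2 signal on each array for the 2 genes of each complex with the smallest F test p (complex in brackets). Dots are the arrays of control, 48 h and 72 h, horizontal ticks with bars are the mean ± SD (n = 3), and all panels span 1.5 log2 units; the 72 h arrays lie above all control arrays for Ndufb10, Sdhb, Sdha, Uqcr11, Ndufa4, Atp5e and Atp5k.

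The promoters of OXPHOS genes share sequence features that the symbols did not select. NRF1, GABP (an ETS factor) and YY1 are known as activators of many nuclear genes of the respiratory chain. RefSeq (GRCm38.p6) gave a window of 250 bases before to 50 after the start for 76 of the 91 members, and the first listed start was used. On either strand, the NRF1 letters GCGCANGCG were found in 27.6% of these windows (21 of 76), against 6.47% of all 27025 promoters of the same length. The GABP letters CCGGAAG were found in 27.6% (21 of 76), against 9.12%, and the YY1 letters AAGATGGC in 11.8% (9 of 76), against 2.88%. None of these 3 motifs contains another, but different motifs can overlap at their ends. The last 3 GABP letters are the first 3 YY1 letters, so the same stretch can count for both. The NRF1 letters can overlap with their own reverse complement and then count more than once. A match describes the letters and does not show binding. For OSKM, the KLF4 letters GGGNGTGG were in 15.8% of the windows (17.6% of all) and the MYC letters CACGTG in 7.89% (7.24% of all).

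The median difference at 72 h was 0.16 in members with the NRF1 letters and 0.19 in those without. It was 0.21 and 0.16 for GABP and 0.27 and 0.16 for YY1, and 0.14 and 0.18 for KLF4, with no test. Without Dox 72 h 3 these pairs were 0.076 and 0.0998 for NRF1, 0.11 and 0.081 for GABP, 0.13 and 0.094 for YY1, and 0.028 and 0.10 for KLF4. Windows are shown from among the genes chosen by the naming rule that were above the dim limit and had a window. They are those of the 3 with the smallest p at 72 h and of Cox6a1, which had the smallest difference among them, to set genes that lay above control beside one that did not. Capitals mark the NRF1, GABP and YY1 letters on either strand, and each is written 5′ to 3′ on the strand of the gene. Ndufb10 lies on the minus strand at chr17:24724374-24724673, Sdhb on the plus strand at chr4:140961021-140961320, Atp5e on the minus strand at chr2:174464052-174464351 and Cox6a1 on the minus strand at chr5:115348909-115349208.
Ndufb10: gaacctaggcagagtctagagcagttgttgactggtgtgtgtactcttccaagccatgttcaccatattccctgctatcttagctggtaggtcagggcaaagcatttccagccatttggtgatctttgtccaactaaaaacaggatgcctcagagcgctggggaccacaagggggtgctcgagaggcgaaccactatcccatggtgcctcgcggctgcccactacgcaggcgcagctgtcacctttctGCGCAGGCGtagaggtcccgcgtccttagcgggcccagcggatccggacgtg
Sdhb: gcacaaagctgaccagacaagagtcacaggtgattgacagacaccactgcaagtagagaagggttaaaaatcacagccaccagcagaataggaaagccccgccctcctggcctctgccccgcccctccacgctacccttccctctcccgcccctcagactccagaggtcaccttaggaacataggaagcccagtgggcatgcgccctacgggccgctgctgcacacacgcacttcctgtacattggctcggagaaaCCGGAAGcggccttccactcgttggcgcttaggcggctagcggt
Atp5e: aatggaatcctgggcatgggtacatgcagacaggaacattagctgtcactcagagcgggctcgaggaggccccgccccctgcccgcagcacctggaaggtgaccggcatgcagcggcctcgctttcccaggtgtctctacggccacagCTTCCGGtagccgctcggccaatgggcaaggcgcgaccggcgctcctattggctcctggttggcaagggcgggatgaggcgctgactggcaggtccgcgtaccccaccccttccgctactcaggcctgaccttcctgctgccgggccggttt
Cox6a1: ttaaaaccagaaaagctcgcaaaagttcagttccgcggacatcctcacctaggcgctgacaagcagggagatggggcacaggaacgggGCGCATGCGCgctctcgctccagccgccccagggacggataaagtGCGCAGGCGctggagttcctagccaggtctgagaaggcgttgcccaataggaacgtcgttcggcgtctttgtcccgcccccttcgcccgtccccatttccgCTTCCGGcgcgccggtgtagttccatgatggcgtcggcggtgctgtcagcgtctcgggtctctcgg
Ndufb10 holds 1 match to the NRF1 letters, Sdhb and Atp5e hold 1 match each to the GABP letters, and Cox6a1, with a difference near 0, holds 3 NRF1 matches, 2 of which overlap, and 1 GABP match.

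Related mitochondrial genes lay on both sides of the OXPHOS median. Of 42 further respiratory chain and assembly genes, 0 passed at 72 h, with a median of 0.18 (33 above 0), and 0.12 without Dox 72 h 3 (31 above 0). The smallest adjusted p were those of Uqcc2, an assembly factor of complex III (0.62, adjusted p = 0.077), Cox14, an assembly factor of complex IV (0.44, 0.077), and Cycs, cytochrome c (0.44, 0.0907, and past the threshold without Dox 48 h 1, at 0.0397). Of 68 genes of the mitochondrial ribosome, 1 rose, Mrps31 (0.40, adjusted p = 0.0455), and the median was 0.15 (57 above 0), or 0.050 without Dox 72 h 3 (45 above 0). Mrps31 did not pass when any 1 of the 9 arrays was left out (adjusted p from 0.052 to 0.148). Of 18 genes of the tricarboxylic acid cycle 0 passed (median 0.020, 10 above 0, and -0.011 without Dox 72 h 3), and of 25 regulators of mitochondrial biogenesis 0 passed (median -0.031, 11 above 0, and -0.0095 without that array). Tfam, which packages and transcribes mitochondrial DNA, was at 6.17, 6.59 and 6.27 in control and 6.56, 6.70 and 7.05 at 72 h (0.42, adjusted p = 0.202, and 0.28 without Dox 72 h 3). The 67 genes of the cytosolic ribosome, which lies outside mitochondria, had a median of 0.093 (52 above 0, 0 past the threshold), and 0.042 without Dox 72 h 3. Dox 72 h 3 was the highest array for 75% of mitochondrial and 56.7% of cytosolic ribosome genes, and for 44.4% of cycle genes.

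The 1 carrier of the inner membrane that passed was Slc25a4, which exchanges the ATP made by complex V for ADP. It rose from 7.75, 7.72 and 7.60 in control to 8.24, 8.24 and 8.30 at 48 h and 8.46, 8.45 and 8.46 at 72 h. The 3 groups did not overlap, and Dox 72 h 3 did not stand apart for this gene. The differences were 0.57 (adjusted p = 0.00519) and 0.77 ± 0.064 (1.70-fold, adjusted p = 0.00234), and both passed whichever array was left out (adjusted p up to 0.028). The median of the 14 carriers was 0.064 at 72 h and 0.031 without Dox 72 h 3. Among 20 glycolysis genes, 2 rose and 1 fell at 72 h (median -0.0093, and 0.059 without Dox 72 h 3). Eno3, an enolase, rose by 0.76 (adjusted p = 0.0275), Aldoc, an aldolase, rose by 0.41 (0.0266), and Slc2a3, a glucose transporter, fell by 0.89 (0.0154). These 3 calls were lost without control 1, control 2, control 3 or Dox 72 h 2, and of the 3 genes Slc2a3 alone passed without Dox 72 h 1 or Dox 72 h 3. By comparison, 11 of 17 type I interferon response genes rose at 72 h, with a median of 1.34, and with single arrays left out the calls ran from 3 (without control 1) to 11 (without control 3) and the median from 1.23 to 1.48.

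**Figure D4:**
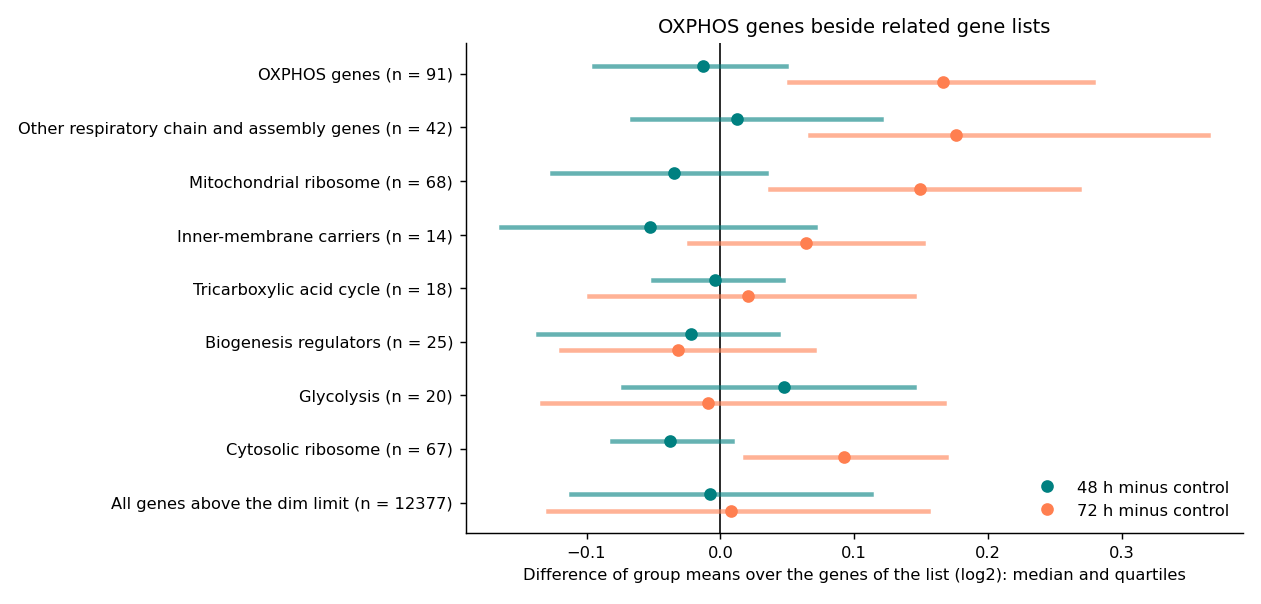
Difference from control (log2) over the OXPHOS genes, 7 related lists and all genes above the dim limit, at 48 h and at 72 h. Points are medians and bars run from the lower to the upper quartile over the genes of a list; at 72 h the medians are 0.17 for OXPHOS genes, 0.18 for further respiratory chain genes, 0.15 for the mitochondrial ribosome and 0.020 for the tricarboxylic acid cycle.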

How the data were processed

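Each sample of sorted leukemia cells was run on 1 Affymetrix array (Mouse Gene 2.0 ST). The authors deposited log2 expression values per probe set. The study's methods name the oligo package and RMA, while MAS5, without a version, stands in the submitters' processing notes. No further normalization was applied, and differences of low signals may be compressed by the background correction. Arrays were named and grouped from the labels (3 groups of 3). Of 41345 probe sets, 23521 have 1 symbol, 1820 several and 16004 none in the annotation used. A total of 10 probe sets that join a member with another symbol were left out, and of the 10 members with more than 1 probe set the one with the highest mean was used.

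Groups were compared with limma 3.58.1 in R 4.3.3 (lmFit with 1 mean per group over 9 arrays, eBayes, two-sided moderated tests and a moderated F test), with Benjamini-Hochberg adjustment over all 41345 probe sets and a threshold of 0.05. The procedure was tested on simulated data. Differences are of mean log2 values, and values after ± are SE unless given as SD. The number of arrays limits the precision: 95% intervals reached a median of 0.25 to either side of a member's difference. The dim limit of 3.81 is the median of all probe set means and is no detection call. No pair of arrays was identical over all probe sets. Single probe sets did hold ties: Ndufb6, Atp5o and Atp5g1 had the same value on all 3 control arrays (SD of 0).

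Named genes are the 2 members of each complex with the smallest F test p, the isoform sets, the highest and lowest probe set of each complex and up to 3 genes of each related list. Members, lists and this rule were chosen with earlier results of these data known. Lists are described by counts and medians and were not tested. Alternatives were quantile normalization, median centring, leaving out dim probe sets, the 2 compared groups alone, the replicate number as a block, averaged probe sets, an intensity trend with a robust prior, and each array left out in turn. Scanner files were not analysed here.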

Additional observations from a re-analysis of the deposited data

How the results depend on the processing

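No member was past the threshold at 48 h against control or at 72 h against 48 h in any alternative. At 72 h against control, 1 member passed with quantile normalization, 1 with median centring and 1 with dim probe sets left out, Ndufb10 each time, and leaving out arrays in turn gave 0 to 1, the 1 being Ndufaf2 without Dox 72 h 1. The F test gave 0 to 1 in the same way (Ndufaf2, adjusted p = 0.0389). The median at 72 h was 0.17 with quantile normalization and 0.26 with median centring, which moved the median of all probe sets to 0.082, and 0.089 to 0.20 with arrays left out. The median of complex I at 72 h was 0.31 without Dox 72 h 1, and that of complex II 0.029 without Dox 72 h 3. Between the time points the median was 0.14 for complex I and 0.048 for complex V without Dox 72 h 3. Of 1521 values of named genes, 1518 kept their side of the threshold and 3, all of Ndufb10 at 72 h, passed it. The sign of the difference changed in 54 of the 1521. With the replicate number as a block (replicate block), 0 members passed in each comparison and the medians were -0.013, 0.17 and 0.17, while the calls over all probe sets went from 662, 1028 and 89 to 327, 258 and 11. Samples of the same number did not deviate together (r from -0.30 to 0.21, 2 of 9 pairs over 0.1), so the numbers are not read as pairs.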
